A study of Mus musculus with 6 samples.

Results

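The Ifitm genes encode small interferon-induced transmembrane proteins, and the 4 members described here are Ifitm1, Ifitm2, Ifitm3 and Ifitm6. They were found by mouse symbol among the 55401 genes of the count table, and the annotated family has 7 members, the other ones being Ifitm5, Ifitm7 and Ifitm10. The members were chosen by measured values, the counts of Ifitm1 and its paralogs in these same libraries, with Ifitm1 known to be higher in set B, so the levels of the members between the sets are a description and carry no test. The data were bulk RNA-seq counts of 6 mouse libraries, 3 in set B and 3 in set A, labelled as basophils sorted from blood of WT mice. The gate took live CD45+ Lin- CD49b+ cells positive for FcεRIα or IgE, and the protocol names Smart-seq2 whereas the library descriptions name 10x Genomics, a conflict the sources used here do not settle. The study painted both ears each day with MC903, a vitamin D analogue that causes atopic-dermatitis-like inflammation, with 2 nmol in a volume of 10 µL per day over days 0 to 6, and controls received only the ethanol carrier. The sources used here do not tell which set was treated, nor strain or age. They call the RNA pooled without saying over what, and the design text names ear skin where the library labels name blood.

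The cell label was checked against 8 basophil genes before any comparison. Fcer1a, the IgE-binding chain of the sort gate, was at 216, 94.4 and 41.9 CPM (the count over its library's total, times 1000000) in set B and at 0.0726, 0 and 0 CPM in set A. Mcpt8, a granule protease that defines mouse basophils, was at 1173, 872 and 478 CPM in set B and at 0.762, 0.681 and 1.28 CPM in set A. Of the other 6 genes, Prss34, Cpa3 and Cd200r3 were below 1 CPM in every set A library and higher in all of set B. Hdc was also higher in all of set B but reached 267 CPM in replicate 3 of set A. Ms4a2 overlapped, at 1.02 to 20.7 CPM in set B and 0 to 11.9 CPM in set A, and so did Gata2, at 1.15 to 42.8 CPM in set B and 0.109 to 116 CPM in set A. By Fcer1a and Mcpt8 the libraries of set A go against their label, and no difference between the sets is read here as a change inside basophils. Other marker lists differed as well: 11 neutrophil genes summed to 12520 to 23293 CPM in set B and 2400 to 9713 CPM in set A, and 7 T cell genes to 131 to 181 CPM in set B and 481 to 881 CPM in set A. In 9 monocyte genes the sums overlapped, at 3224 to 4453 CPM in set B and 3080 to 3522 CPM in set A. So did those of 5 B cell genes, at 2023 to 2718 CPM in set B and 1607 to 3011 CPM in set A. The 8 basophil genes summed to 1449 to 3195 CPM in set B, so its libraries also carried genes of cell types outside their label. Sums over different genes give no share of cells. Ly6g, Cd4 and Alas2 had 0 counts in all 6 libraries. In bulk libraries fewer cells of a type and less RNA per cell cannot be told apart.

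IFITM proteins sit in the membranes of the cell surface and of endosomes, where they hinder the fusion of enveloped viruses with the cell. They share a membrane-associated domain called CD225, and interferons of type I and type II raise many of them through STAT and IRF factors, although several myeloid and stem cells make them without added interferon. IFITM1 is found mostly at the cell surface, whereas IFITM2 and IFITM3 are sorted to endosomes and lysosomes by a tyrosine signal in a longer amino-terminal tail. Ifitm6 is a mouse member that has been linked with myeloid cells. IFITM5 is known from bone-forming cells.

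The members differ in the DNA around their starts, and these windows are shown because interferon factors read short motifs there. The windows are those of RefSeq on GRCm38.p6, 250 bases before to 50 bases after an annotated start, and all 4 members matched. They lie at chr7:140967826-140968125 on the plus strand for Ifitm1, and on the minus strand at chr7:140955912-140956211 for Ifitm2, chr7:141010695-141010994 for Ifitm3 and chr7:141016843-141017142 for Ifitm6. The sources used here name no build for the count table. Capitals mark GAAANNGAAA, a core of the interferon-stimulated response element, searched on both strands.
Ifitm1: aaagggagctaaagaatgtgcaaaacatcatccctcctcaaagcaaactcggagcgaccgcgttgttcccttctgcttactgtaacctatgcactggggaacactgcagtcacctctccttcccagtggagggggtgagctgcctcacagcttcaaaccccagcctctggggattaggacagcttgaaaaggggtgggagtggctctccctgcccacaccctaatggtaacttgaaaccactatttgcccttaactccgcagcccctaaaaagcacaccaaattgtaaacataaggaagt
Ifitm2: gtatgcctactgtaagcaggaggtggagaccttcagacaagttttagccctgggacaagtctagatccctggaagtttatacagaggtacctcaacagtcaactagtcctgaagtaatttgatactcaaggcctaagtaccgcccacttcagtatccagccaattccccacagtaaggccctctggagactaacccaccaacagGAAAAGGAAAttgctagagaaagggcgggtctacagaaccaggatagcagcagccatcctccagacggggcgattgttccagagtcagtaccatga
Ifitm3: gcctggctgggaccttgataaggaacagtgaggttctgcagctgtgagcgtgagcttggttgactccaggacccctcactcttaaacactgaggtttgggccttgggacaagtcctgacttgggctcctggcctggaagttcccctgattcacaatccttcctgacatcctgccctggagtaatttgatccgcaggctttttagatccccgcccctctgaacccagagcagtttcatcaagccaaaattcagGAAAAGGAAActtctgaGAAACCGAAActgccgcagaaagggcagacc
Ifitm6: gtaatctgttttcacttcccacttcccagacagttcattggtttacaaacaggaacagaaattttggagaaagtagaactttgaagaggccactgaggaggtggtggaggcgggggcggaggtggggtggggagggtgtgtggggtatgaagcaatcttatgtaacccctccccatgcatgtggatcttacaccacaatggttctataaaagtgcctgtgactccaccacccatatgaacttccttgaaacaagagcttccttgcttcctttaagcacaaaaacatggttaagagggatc
Ifitm3 held the motif at 2 places, 3 and 20 bases into the transcript, and Ifitm2 held it once, 46 bases upstream of the start. The windows of Ifitm1 and Ifitm6 held no match, and Ifitm1 has further annotated starts whose windows were not analysed here. Among 32544 promoter windows of the same length 3.45% held GAAANNGAAA. TTCNNNGAA, the palindromic site of STAT factors, was found once in Ifitm3 and once in Ifitm6, 10 bases upstream of its start, and in 8.33% of all windows. In Ifitm3 it begins at base 14 and its final 3 bases are also the beginning of the second GAAANNGAAA match. A match describes these letters only.

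The 4 genes stand in 1 cluster on chromosome 7 together with Ifitm5, and their reading frames are related enough to bear on read counting. The longest frames had 106 codons in Ifitm1, 144 in Ifitm2, 137 in Ifitm3 and 124 in Ifitm6. Ifitm2 and Ifitm3 were the closest pair, with 73.5% identical residues where aligned, followed by Ifitm1 and Ifitm3 at 70.8% and Ifitm1 and Ifitm2 at 67.9%. Ifitm6 stood further off, at 45.2% to 50.5% identity with the others. Of the stretches of 150 bases, the read length, in GENCODE M21 transcripts, 0 in Ifitm1, Ifitm3 and Ifitm6 recurred exactly in another gene, and 23.5% of those in Ifitm2 recurred in Gm45717, an annotated gene that overlaps both Ifitm5 and Ifitm2 on the same strand. Gm45717 had 541 counts in replicate 2 of set B and 0 in the other 5 libraries, against 70910 to 261650 counts of Ifitm2. Reads that matched more than 1 gene may have been split or dropped, which is not stated, so the value of Ifitm2 carries that uncertainty. At 50 bases 48.5% of Ifitm2 stretches, 10.0% of Ifitm3, 5.02% of Ifitm1 and 0% of Ifitm6 recurred in another gene.

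Ifitm1 (ENSMUSG00000025491), the surface member, was the 1 member of the 4 whose level differed several-fold between the sets. It had 49671, 51872 and 45965 counts in replicates 1, 2 and 3 of set B and 3121, 7903 and 6388 counts in set A. In CPM these were 999, 877 and 719 in set B and 56.6, 149 and 138 in set A. Every set B library stood above every set A library, and the lowest in set B was 4.81 times the highest in set A. The mean was 865 ± 140 CPM in set B and 115 ± 50.7 CPM in set A (SD, n = 3 each), a ratio of 7.53. The fitted log2 difference was 2.83 (SE 0.39), and it stayed between 2.53 and 3.09 when any library was left out. DESeq2 gave 2.75 with an SE of 1.48, and its SE for the other members was 1.44 to 1.47. Values within a set ran over a factor of 1.39 in set B and 2.64 in set A, where replicate 1 was the low library. Replicate 1 of set A also had the fewest genes with a count, 9242. Replicates 2 and 3 of set A had 9845 and 11281, and the libraries of set B had 11141 to 14066. That library also had the lowest summed level of the 8 basophil genes (39.7 CPM, against 121 and 385 CPM in replicates 2 and 3 of set A) and of the neutrophil genes (2400 CPM, against 7640 and 9713 CPM). In set A the basophil sum came mostly from Hdc, at 38.0, 62.2 and 267 CPM, and Gata2, at 0.109, 45.6 and 116 CPM. It is therefore not read there as a level of basophils. Inside set B the libraries took the same order for Ifitm1 and for the basophil sum, which was 3195, 2055 and 1449 CPM in replicates 1, 2 and 3. The neutrophil sum, at 23293, 12520 and 12866 CPM there, departed from that order only between replicates 2 and 3. Single genes of both lists were mixed in set B. The neutrophil genes S100a8, Mmp8, Csf3r and Cxcr2 took the order of Ifitm1, and S100a9, Retnlg, Mmp9, Camp, Ngp and Ltf did not. The basophil genes Mcpt8, Fcer1a, Cd200r3 and Hdc took it, and Prss34, Ms4a2, Cpa3 and Gata2 did not. In set A Ifitm1 was higher in replicate 2 than in replicate 3 while the basophil sum was lower. The part of these cell types in the level of Ifitm1 was not tested.

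Ifitm2 (ENSMUSG00000060591), an endosomal member, was also higher in every set B library than in any of set A, by a far smaller margin. It was at 2597, 2647 and 4091 CPM in set B and at 1737, 1341 and 2083 CPM in set A. The lowest set B library was 1.25 times the highest of set A. The mean was 3112 ± 848 CPM in set B and 1720 ± 371 CPM in set A (SD, n = 3 each), a ratio of 1.81, with a fitted log2 difference of 0.76 (SE 0.26). Replicate 3 was the highest library of its set in both sets.

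Ifitm3 (ENSMUSG00000025492), the member best known for restricting viruses in endosomes, had overlapping sets. Its levels were 3031, 3355 and 4593 CPM in set B and 4043, 2919 and 3474 CPM in set A. Set B averaged 3660 ± 824 CPM and set A 3479 ± 562 CPM (SD, n = 3 each). The log2 difference of -0.03 (SE 0.24) lay inside its error and took the other sign, 0.08, when libraries were scaled by their totals alone.

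Ifitm6 (ENSMUSG00000059108) likewise had overlapping sets, with a wider spread in set B. It was at 645, 415 and 1031 CPM in set B and at 729, 761 and 666 CPM in set A. The highest and the lowest library of all 6 were both in set B, where the values ran over a factor of 2.48, while those of set A ran over 1.14. The mean was 697 ± 311 CPM in set B and 718 ± 48.1 CPM in set A (SD, n = 3 each). The log2 difference was -0.13 (SE 0.37), and it was 0.15 without replicate 2 of set B and -0.51 without replicate 3 of set B.

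**Figure D1:**
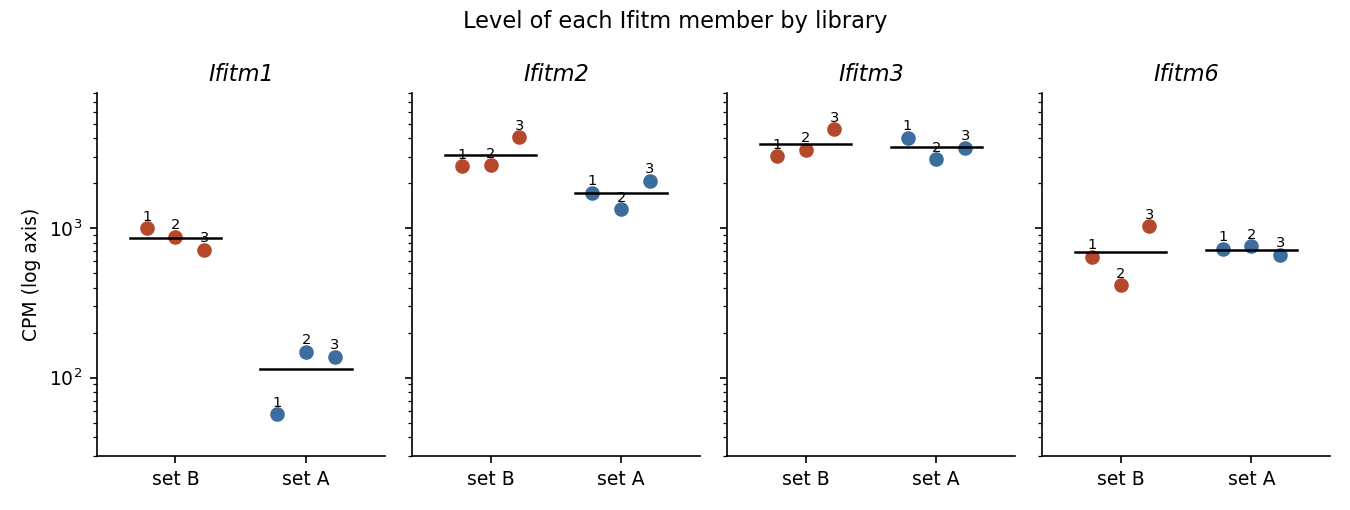
Level of each Ifitm member in CPM on a log axis, with 1 point per library, the replicate number above it and a bar at the mean of the set. Ifitm1 separates into 719 to 999 CPM in set B and 56.6 to 149 CPM in set A, Ifitm2 separates narrowly, and the points of Ifitm3 and Ifitm6 overlap.

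Of the 4 members, 2 had no overlap between the sets, both with set B above set A. Among the 9196 genes tested, 10.2% had all set B libraries above all set A libraries. By edgeR's quasi-likelihood test with Benjamini-Hochberg adjustment 0.0217% of genes were called at 0.05, and none of the 4 members was among these 2 genes, Mcpt8 and Prss34. An unadjusted p under 0.05 was reached by 6.36% of genes, and DESeq2 called 12.9%. The members were chosen with this contrast known, so nothing is read from these counts about the family. Among 555 tested genes with a mean level within 2-fold of that of Ifitm1, 3 had a larger absolute log2 difference. The same count was 11 of 78 for Ifitm2, 36 of 39 for Ifitm3 and 276 of 354 for Ifitm6. These counts use the difference by which Ifitm1 was chosen, so its place among like genes follows from that choice and is no test. The pooled spread of log2 values within sets was 0.57 for Ifitm1, 0.35 for Ifitm2, 0.28 for Ifitm3 and 0.47 for Ifitm6, against medians of 0.51, 0.28, 0.26 and 0.43 in the genes of like level.

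The members were compared with each other per length, as CPM per kilobase of merged exons in GENCODE M21, which assumes reads from the whole transcript, as Smart-seq2 gives them. Ifitm3 led in both sets at 5398 ± 1216 CPM per kilobase in set B and 5131 ± 829 in set A (SD, n = 3 each). Ifitm2 came next, at 4751 ± 1295 CPM per kilobase in set B, within the spread of Ifitm3 between libraries there. Inside each set B library it was below Ifitm3, at 3965, 4042 and 6246 against 4471, 4948 and 6774 in replicates 1, 2 and 3. In set A Ifitm2 was at 2627 ± 567, and its highest library, at 3180, lay below the lowest of Ifitm3, at 4306. By this measure Ifitm3 ranked 9 to 14 among all genes in every library, and Ifitm2 ranked 10 to 14 in set B and 19 to 35 in set A. Ifitm1 stood at 791 ± 128 CPM per kilobase in set B, next to Ifitm6 at 770 ± 344, and these neighbours in the order did not differ beyond their spread. In set A Ifitm1 was at 105 ± 46.4 CPM per kilobase, below Ifitm6 at 794 ± 53.1. The rank of Ifitm1 was 64, 75 and 113 in set B and 1444, 535 and 611 in set A.

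Proportions inside a library do not depend on how libraries are scaled, and they show that the members did not keep a fixed ratio. For every 100 counts of Ifitm3 there were 32.9, 26.1 and 15.6 counts of Ifitm1 in set B and 1.40, 5.12 and 3.99 in set A. Ifitm2 had 85.7, 78.9 and 89.1 counts per 100 of Ifitm3 in set B and 43.0, 46.0 and 60.0 in set A. Both ratios were higher in every library of set B than in any of set A. The ratio of Ifitm1 restates the difference by which it was chosen and is no test. Ifitm6 had 21.3, 12.4 and 22.5 counts per 100 of Ifitm3 in set B and 18.0, 26.1 and 19.2 in set A, which overlap. The 4 members together took 0.727%, 0.729% and 1.04% of all counts in set B and 0.657%, 0.517% and 0.636% in set A. Summed, they were at 8333 ± 1819 CPM in set B and 6032 ± 753 CPM in set A (SD, n = 3 each), with a fitted log2 difference of 0.37 (SE 0.21) that was 0.20 without replicate 3 of set B. Ifitm1 made up 10.9% ± 3.56 of that sum in set B and 1.98% ± 1.03 in set A, and Ifitm3 43.9% ± 2.15 in set B and 57.5% ± 3.61 in set A (SD, n = 3 each). Ifitm2 made up 37.1% ± 1.87 in set B and 28.4% ± 3.79 in set A, and Ifitm6 8.15% ± 2.19 in set B and 12.1% ± 2.29 in set A (SD, n = 3 each). Shares add up to 100%, so a lower share of Ifitm3 in set B is no lower level, and its CPM overlapped between the sets.

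**Figure D2:**
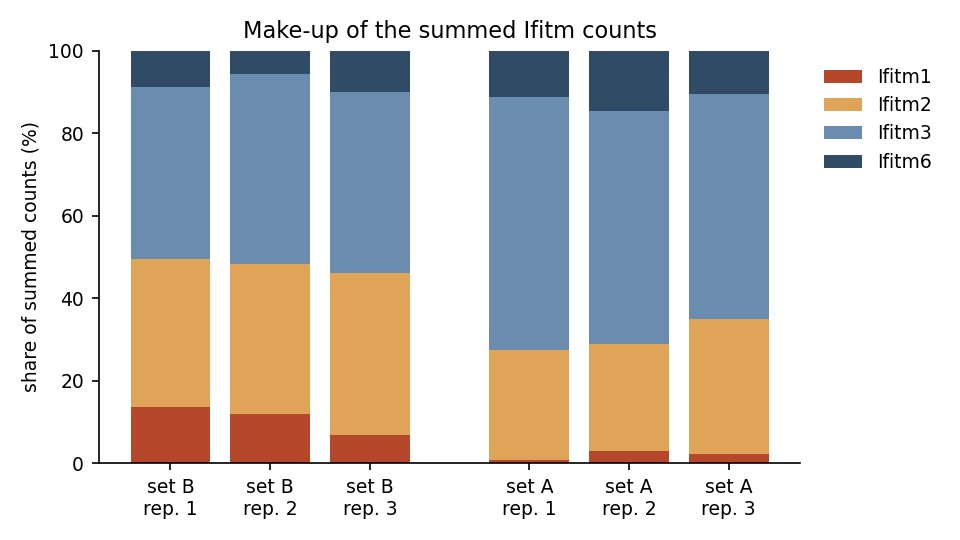
Share in percent of the summed counts of the 4 members that each member took, with 1 stacked bar per library. Ifitm1 took 6.89% to 13.7% of the sum in set B and 0.862% to 2.89% in set A, and Ifitm3 took the largest share in every library.

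The 3 further family members were at 0 or varied widely between libraries. Ifitm7 had 0 counts in all 6 libraries. By counting error alone a count of 0 allows up to 3 counts. That limit lay at 0.0469 to 0.0603 CPM in set B and 0.0544 to 0.0650 CPM in set A, and it does not cover transcripts lost before counting. Ifitm5, the bone member, had 679 counts (11.5 CPM) in replicate 2 of set B, the library that also held the counts of the overlapping Gm45717, and 0 elsewhere. Ifitm10, a distant relative, was at 49.7, 0.338 and 71.3 CPM in set B and at 0.145, 229 and 22.4 CPM in set A, where in replicate 2 it was above Ifitm1. Its sets overlapped and it was not called (log2 difference -1.10, SE 2.35, adjusted p = 1.00 by edgeR). Of 8 further proteins of the CD225 group, 7 had a row in the table, 5 of these had 0 counts in every library and 0 could be tested. Prrt1 was at 0.625 CPM in replicate 3 of set B and at 29.0 CPM in replicate 3 of set A, with 0 counts elsewhere. Tmem91 was at 4.50 and 9.15 CPM in replicates 1 and 3 of set B and at 0.0757 CPM in replicate 2 of set A, with 0 counts elsewhere.

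Across the 6 libraries the pattern most like that of Ifitm1 belonged to Lrg1, which encodes a secreted leucine-rich glycoprotein. Likeness was the root mean square difference of centred log2(CPM + 1) values over 1797 other genes with a mean of at least 100 CPM, and libraries and depth are shared by all of them. It was 0.63 for Lrg1, followed by Arl6ip5 (0.66), Brd7 (0.71), Hdc (0.71), the histamine-making enzyme that is also 1 of the 8 basophil genes above, and Wfdc17 (0.72). Lrg1 was at 883, 915 and 670 CPM in set B and at 158, 322 and 148 CPM in set A. Hdc was at 685, 467 and 359 CPM in set B and at 38.0, 62.2 and 267 CPM in set A, with its low library in replicate 1 of set A, as in Ifitm1. The paralogs were further from Ifitm1 than these genes: Ifitm2 ranked 117 at 1.25, Ifitm3 ranked 668 at 1.61 and Ifitm6 ranked 881 at 1.71. The measure takes in the difference between the sets by which Ifitm1 was chosen. These ranks therefore follow in large part from that choice and are no test. With a minimum of 300 CPM, Lrg1, Hdc and Wfdc17 stayed among the 5 nearest and Slpi and Retnlg joined them. Retnlg is 1 of the 11 neutrophil genes above, at 1704 ± 207 CPM in set B and 548 ± 156 CPM in set A (SD, n = 3 each).

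The other members had other neighbours by the same measure. Ifitm2 lay closest to Arpc3, a subunit of the actin-branching complex, at 0.17, then to Edf1, Pglyrp1, Ssna1 and Rpl37 at 0.21 each. Ifitm3 lay closest to Gng5, a G protein gamma subunit, at 0.05, and then to Lgals3, Apoc2, Rpl26 and the actin-binding profilin Pfn1 at 0.11 to 0.12. Ifitm6 was nearest to Rpl14 and Atp5g1 at 0.15, Gmfg at 0.20, Dad1 at 0.21 and Ftl1-ps1 at 0.23. None of these sets of 5 held another Ifitm member, and the closest pair inside the family was Ifitm3 and Ifitm6, at 0.34. Both had small log2 differences between the sets, -0.03 and -0.13, which the measure takes in.

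**Figure D3:**
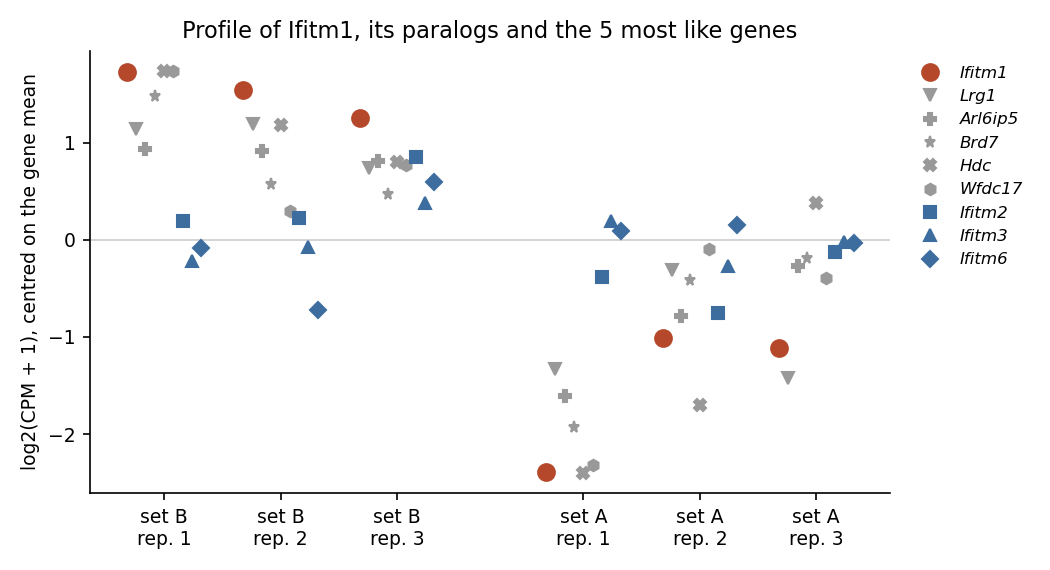
Centred log2(CPM + 1) of Ifitm1, its 3 paralogs and the 5 genes with the most similar profile, with the libraries of set B on the left and of set A on the right and 1 point per gene and library. Ifitm1 lies between 1.25 and 1.73 in set B and between -2.39 and -1.01 in set A, while Ifitm3 stays between -0.27 and 0.38 in all 6 libraries.

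Interferons themselves were almost absent from the table, and the genes that carry or answer their signal were read out in the fit over all genes. Of 14 interferon genes, 13 had 0 counts in every library, and Ifng was at 0.0625 CPM, near the floor of 3 counts, in replicate 3 of set B. Of 24 genes of interferon receptors and signalling, 22 were tested and 0 were called in either direction by edgeR or DESeq2. By edgeR 1 had an unadjusted p under 0.05, as did 6.36% of all genes, and DESeq2 called 12.9% of all genes. The fitted log2 differences were above 0 in 5 and below in 17, with a median of -0.52. The median over all genes tested was -0.06, and it ran from -0.16 to 0.48 over other scalings, filters and fits. Among the most abundant were Ptpn6, a phosphatase that damps cytokine signals, Ifngr1, a chain of the interferon gamma receptor, and Irf5, a transcription factor. Ptpn6 was at 1549 ± 59.4 CPM in set B and 1471 ± 176 in set A, and Ifngr1 at 957 ± 62.0 in set B and 1223 ± 203 in set A (SD, n = 3 each). Irf5 was at 254 ± 154 CPM in set B and 682 ± 307 in set A (SD, n = 3 each). All set B libraries lay below all of set A for Ifngr1, Jak2, Stat3 and Irf5, 4 of the 22, where 3.91% of all genes tested did so.

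Of 40 interferon-stimulated genes, 29 were tested and 0 were called in either direction by edgeR (3 at an unadjusted p under 0.05, as were 6.36% of all genes). Of the fitted values 20 were above 0 and 9 below, with a median log2 difference of 0.48. DESeq2, which applies its own filter, called 6 of the 40, all higher in set B: Isg20, Ifit3 and Ifit3b, and Mx1, Eif2ak2 and Dhx58, which edgeR did not test. Over all genes DESeq2 called 12.9%, 1112 of them higher in set B and 102 lower. All set B libraries lay above all of set A in 3 of the 29, Isg20, Ifit3b and Zbp1, near the 10.2% of all genes. The most abundant were Ly6e, a surface protein of the Ly6 family, Samhd1, a nucleotide-cleaving restriction factor, Ifi27l2a and Ifi35. Ly6e was at 2967 ± 1597 CPM in set B and 2062 ± 616 in set A, and Samhd1 at 932 ± 194 in set B and 669 ± 143 in set A (SD, n = 3 each). Ifi27l2a was at 517 ± 213 CPM in set B and 423 ± 30.7 in set A, and Ifi35 at 318 ± 71.9 in set B and 223 ± 158 in set A (SD, n = 3 each). Isg20, an exonuclease, was picked out after its values were seen: it was at 118, 105 and 69.8 CPM in set B and at 0.254, 0.189 and 0.130 CPM in set A (log2 difference 8.85, SE 1.65, adjusted p = 0.51 by edgeR and 3.49e-06 by DESeq2). Classical responders, also picked out afterwards, were uneven between libraries. Isg15 and Ifit1 had at most 6.99 and 23.9 CPM in any library and Ifit2 had 0 counts in all 6. Ifit3 reached 162 CPM and Oas1a 175 CPM in replicate 2 of set B, and Mx1 106 CPM in replicate 1 of set B. Others of the list had their highest library in set A. Oas2 reached 109 CPM, Oasl1 32.3 CPM and Ifi27 358 CPM in replicate 1 of set A, and Mx2 38.7 CPM in replicate 3.

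**Figure D4:**
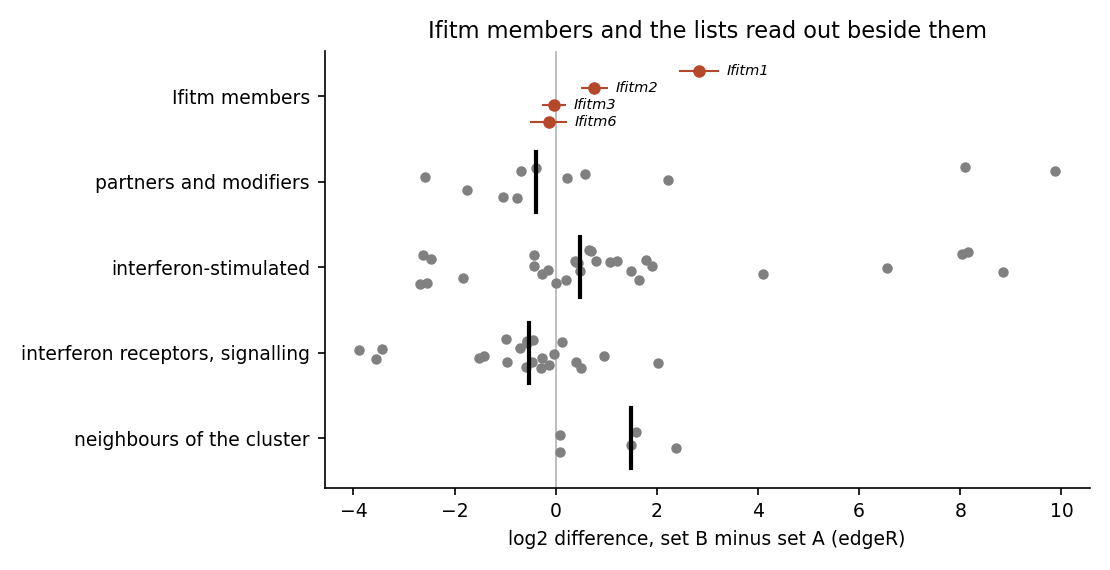
Fitted log2 difference of set B minus set A for the 4 Ifitm members, with standard errors, and for the tested genes of 4 lists read out beside them, with 1 point per gene and a bar at the list median. Ifitm1 stands at 2.83, Ifitm3 and Ifitm6 near 0, and the medians of the lists lie between -0.52 and 1.5.

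Proteins that bind or modify IFITM proteins, mostly known from human cells, gave 0 calls by edgeR among 11 tested of 15 (3 at an unadjusted p under 0.05, as were 6.36% of all genes), and DESeq2 called 2, Nedd4 and Zdhhc7, as it did 12.9% of all genes. Their median log2 difference was -0.38, with 5 fitted values above 0 and 6 below. The most abundant were the tetraspanins Cd9 and Cd81, Vapa, an anchor of the endoplasmic reticulum that IFITM3 binds, and Fyn, a kinase that phosphorylates the tyrosine signal. Cd9 was at 862 ± 201 CPM in set B and 1043 ± 154 in set A, and Cd81, which joins IFITM1 in the B cell coreceptor, at 149 ± 23.6 in set B and 277 ± 153 in set A (SD, n = 3 each). Vapa was at 243 ± 40.5 CPM in set B and 192 ± 87.5 in set A, and Fyn at 133 ± 53.8 in set B and 207 ± 70.5 in set A (SD, n = 3 each). Chosen after their values were seen, the palmitoyltransferase Zdhhc7 was at 119, 101 and 24.2 CPM in set B and at 0.109, 0.0757 and 0.0433 CPM in set A (adjusted p = 0.51 by edgeR, 1.93e-06 by DESeq2), and the ubiquitin ligase Nedd4 at 23.9, 7.32 and 5.35 CPM in set B and at 0, 0.0378 and 0.0867 CPM in set A (adjusted p = 0.51 by edgeR, 0.00124 by DESeq2). Zdhhc3, a related transferase also chosen after its values were seen, lay below set A in every set B library, at 58.2, 35.6 and 36.0 CPM in set B and 118, 164 and 127 CPM in set A (log2 difference -1.76, SE 0.71, adjusted p = 0.72 by edgeR).

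Of 10 protein-coding genes that flank the cluster, 5 on each side, 5 were tested, and the values of each of these overlapped between the sets. By edgeR 0 were called, with 0 at an unadjusted p under 0.05, and DESeq2 called 0 of these 5 but did call Ptdss2, which edgeR did not test (55.7, 0.0676 and 9.74 CPM in set B and 0, 0.151 and 0 CPM in set A, adjusted p = 0.0179). Nearest on the Ifitm5 side, Pgghg was at 64.3, 39.6 and 18.7 CPM in set B and at 97.9, 0.151 and 0 CPM in set A. Nearest on the Ifitm6 side, B4galnt4 had 0 counts in all libraries. Psmd13, a proteasome subunit and the most abundant of them, was at 198, 180 and 63.5 CPM in set B and at 0.109, 91.1 and 47.7 CPM in set A. The median log2 difference of the 5 tested was 1.5, with errors of 1.70 to 2.79 on each, so a difference as large as that of Ifitm1 was not resolvable at their levels.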

How the data were processed

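The authors deposited raw counts per Ensembl gene for 6 libraries, not normalized. The submitters' processing notes list DESeq2, HISAT2 2.2.1 and cutadapt 1.9 without their roles. The sources used here name no counter, build, annotation or strand setting. Totals were 49742321 to 63956911 counts in set B and 46137963 to 55116567 in set A, far above the yield of reads per sample that the labels' protocols state. Genes with a count numbered 11141 to 14066 in set B and 9242 to 11281 in set A. No molecular identifiers are mentioned, and floors cover counting error only. Of 55401 identifiers, 55141 had a symbol.

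CPM is a count over its library's total. All genes were fitted in edgeR 4.0.16 (R 4.3.3): filterByExpr, TMM, robust quasi-likelihood test, Benjamini-Hochberg adjustment, threshold 0.05. Standard errors are the absolute log2 difference over the square root of F. DESeq2 1.42.0, other scalings and filters, a replicate block and leaving out each library were alternatives. The edgeR script was run on simulated counts that vary less than these libraries, which checks the code and not its power here. Nothing says that replicates came from separate animals, so p-values measure only how much these libraries vary, possibly for technical reasons.

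Members and lists were chosen with earlier results of these data known. Named genes are the family, the 5 nearest profiles, 5 neighbours a side, and the called or 4 most abundant genes of each list. Others were named after their values were seen. Some genes the rule names are not reported here.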

Additional observations from a re-analysis of the deposited data

How the results depend on the processing

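The log2 differences of Ifitm1 (2.75 to 2.92) and Ifitm2 (0.65 to 0.86) kept their direction under DESeq2, the replicate block, no filter or a stricter one, RLE scaling and scaling by library size alone. Ifitm3 ran from -0.15 to 0.08 and Ifitm6 from -0.26 to -0.03 under the same settings. Leaving out each library gave 2.53 to 3.09 for Ifitm1, 0.54 to 0.90 for Ifitm2, -0.20 to 0.14 for Ifitm3, -0.51 to 0.15 for Ifitm6 and 0.20 to 0.48 for the sum, so Ifitm3 and Ifitm6 have no stable sign. The median of all genes tested was -0.06, -0.16 with RLE, 0.05 with library size alone, 0.28 with no filter, 0.22 with DESeq2 and 0.48 with the replicate block, and list medians were read against the value of -0.06.

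edgeR called 2 genes, 0 with the replicate block, and 0 to 1 when a library was left out (1 without replicate 3 of set B, 0 without each of the others). DESeq2 called 1214 genes, 12.9% of those it tested, and 9 of 69 among the interferon, partner, CD225 and neighbour lists with Ifitm10. In these lists edgeR called 0 of 68, with 7 at an unadjusted p under 0.05, as were 6.36% of all genes. The cause of the difference between the tools was not tested. Same-numbered libraries did not deviate together (correlations 0.03, -0.02 and 0.03). The sets differ in their cell markers, so these correlations cannot tell whether such libraries share more than a number. DESeq2's errors for the members (1.44 to 1.48) exceeded edgeR's. With the block Ifitm1 was 2.91 and Ifitm2 0.74.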
